A study of Rattus norvegicus with 8 samples.

Results

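Abcg1 and 8 other genes of cholesterol efflux and uptake, carriers and receptors as well as regulators, were examined by their transcript levels in rat annulus fibrosus cells (AFCs), the cells of the fibrous outer ring of the intervertebral disc. The 9 genes are Abcg1, Abca1, Nr1h2, Nr1h3, Apoe, Lrp1, Scarb1, Npc1 and Mylip, out of 31699 rows of the deposited table, and each was found by its symbol. They were chosen by their measured values in the same samples that are described here as well as by their roles, so their levels and differences are a description and carry no test.

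The AFCs came from Sprague Dawley rats, and all samples were exposed to cyclic mechanical stretch (CMS) at 20% elongation and 0.5 Hz for 36 h. The 4 samples labelled Lv-Ctrl had received the short hairpin vector pLVX-shRNA-Puro (genotype Ctrl in the labels), and the 4 samples labelled Lv-Piezo1 had received the same vector with a hairpin against Piezo1, with 24 h of infection and a multiplicity of infection (virus per cell) of 20 in both groups. No sample without virus or without stretch was analysed here, so both groups share the vector and the stretch. The cells were cultured. By the study's methods each isolation pooled the annulus tissue of 8 rats, and the 4 samples of a group are separate in vitro repeats, so the p-values measure the spread between repeats and not between single animals. Which isolation each sample came from was not given in the sources used here.

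Cells remove cholesterol through the membrane transporters Abca1, which loads apolipoproteins that carry little lipid, and Abcg1, which passes sterol on to mature high density lipoprotein. The nuclear liver X receptors (LXRs), Nr1h2 and Nr1h3, bind oxysterols and raise the transcription of both transporters, of Apoe and of Mylip, a ubiquitin ligase that limits lipoprotein uptake. Lrp1 and Scarb1 take up lipoprotein cargo at the surface, and Npc1 moves the freed cholesterol out of late endosomes and lysosomes.

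Piezo1, the target of the hairpin, was looked at first. It measured 31.1, 33.0, 26.7 and 29.5 TPM (a share of all transcripts that is corrected for transcript length) in the 4 samples labelled Lv-Ctrl, in the order of their replicate numbers, and 38.1, 37.7, 40.2 and 41.4 TPM in those labelled Lv-Piezo1. All 4 values labelled Lv-Piezo1 lay above all 4 labelled Lv-Ctrl, which goes against the label of a knockdown. Piezo1 differed by 0.38 in log2 fold change (SE 0.06; limma, Benjamini-Hochberg adjusted p = 8.6e-04), and by 0.33 without replicate 3 labelled Lv-Ctrl. Relative to the median of all tested genes the difference was 0.24, and after median-ratio scaling it was 0.22. The cause was not tested. The study reports that the knockdown was verified, by other measures that bear on the cause and were not used here. Every direction given below rests on the labels. Groups are therefore named by their labels, and "higher" or "lower" below always refers to the samples labelled Lv-Piezo1 unless another group is named.

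Replicate 3 labelled Lv-Ctrl stood apart from its group. It held the lowest value of its group in 48.5% of the 13103 genes with a mean of at least 1 TPM over the 8 samples, against 14.5% to 19.8% for the other replicates labelled Lv-Ctrl. In the group labelled Lv-Piezo1, replicate 2 was lowest in 35.0% of the genes and the others in 18.5% to 23.9%. The genes that replicate 3 labelled Lv-Ctrl bears on are given with and without it. The share of TPM from genes encoded in mitochondria was 6.87% to 7.74% in the replicates labelled Lv-Ctrl and 5.69% to 6.16% in the others, and 16645 to 17022 rows of the table were above 0 in the first group and 17191 to 17657 in the second. Both differ between the groups without overlap, and their part in the results was not tested, beyond a fit without the mitochondrially encoded genes, in which the log2 fold change of Abcg1 was 1.97. Fold changes are differences of mean log2(TPM + 1), which makes changes at low TPM look smaller than they are. The median log2 fold change of the 13103 tested genes was 0.14 and went to -0.0046 after median-ratio scaling of the samples, so each fold change of the 9 genes is also given relative to that median.

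The cell type label was checked against marker genes. Of 12 annulus fibrosus and fibrous markers, 11 passed the limit on low TPM, and Col1a1 (3282 ± 137 TPM labelled Lv-Ctrl, 5835 ± 103 labelled Lv-Piezo1, SD, n = 4 each), Col1a2, Bgn, Dcn and Thbs2 were abundant, while Tnmd was at or near 0. By the adjusted p alone (limma), 6 of the 11 were higher and 4 lower, beside 41.9% and 16.3% of all tested genes. With a log2 fold change of 1 or more in size as well, 4.91% of all tested genes were higher and 2.76% lower. Dcn was the 1 gene among the 11 that passed both, lower at 519 ± 14.9 against 1456 ± 69.3 TPM (SD, n = 4 each). Fmod, chosen after its values were seen, was just under that size with a log2 fold change of -0.99 and passed it without replicate 3 labelled Lv-Ctrl (-1.02), with median-ratio scaling (-1.15) and with quantile normalization (-1.09). The notochord markers Tbxt, Shh and Noto were listed at 0 in all samples, and Col2a1, the main collagen of cartilage, stayed below 1 TPM in both groups. Other nucleus pulposus and chondrocyte-like markers were present. Means labelled Lv-Ctrl and Lv-Piezo1 were 3.79 and 21.9 TPM for Cd24, and 2.56 and 3.17 TPM for Krt8. In the same order, they were 31.6 and 47.1 TPM for Acan, 10.7 and 7.73 TPM for Hapln1, and 3.89 and 3.855 TPM for Sox9. No marker in the lists is held by AFCs alone.

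The efflux transporters differed from each other. Abcg1 measured 0.32, 0.32, 0.19 and 0.32 TPM in samples labelled Lv-Ctrl and 4.02, 3.42, 4.62 and 3.56 TPM in those labelled Lv-Piezo1. It was near the bottom of the scale in every sample labelled Lv-Ctrl, and the groups did not overlap. The mean went from 0.288 ± 0.065 to 3.905 ± 0.541 TPM (SD, n = 4 each), 13.6 times as high, with a log2 fold change of 1.92 (standard error 0.11) and 1.78 relative to the median of all genes. Abcg1 was the only one of the 9 genes whose mean was below 1 TPM in a group, and it passed the limit on low TPM through the samples labelled Lv-Piezo1. Without replicate 3 labelled Lv-Ctrl its log2 fold change was 1.89.

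Abca1, the partner of Abcg1 in efflux, measured 5.50, 6.11, 3.35 and 5.18 TPM in samples labelled Lv-Ctrl and 4.91, 4.38, 4.70 and 5.46 TPM in those labelled Lv-Piezo1. The groups overlapped, and the lowest value was that of replicate 3 labelled Lv-Ctrl. Its log2 fold change was -0.02 (standard error 0.15), or -0.16 relative to the median of all genes. Leaving out each sample in turn gave -0.17 (without that replicate) to 0.07, so Abca1 has no settled direction here. Within a sample, the TPM of Abcg1 was 0.0524 to 0.0618 of that of Abca1 in the samples labelled Lv-Ctrl and 0.652 to 0.983 of it in those labelled Lv-Piezo1. The higher transporter of the pair was Abca1 in all 8 samples.

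Apoe, the apolipoprotein that takes up cholesterol leaving the cell and is a ligand of Lrp1, moved the other way from Abcg1. It measured 197, 205, 212.5 and 198 TPM in samples labelled Lv-Ctrl and 22.6, 20.8, 23.4 and 20.1 TPM in those labelled Lv-Piezo1. Each value labelled Lv-Piezo1 was far below each value labelled Lv-Ctrl. The mean went from 203 ± 7.12 to 21.7 ± 1.55 TPM (SD, n = 4 each), a level 9.36 times as high in the samples labelled Lv-Ctrl, with a log2 fold change of -3.17 (standard error 0.05) and -3.31 relative to the median. Ordered by log2 fold change, Apoe was number 15 from the lower end of the 13103 tested genes.

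The 2 LXR genes also differed in level and in change. Nr1h2, the form made in most tissues, measured 76.9, 76.7, 74.1 and 79.3 TPM in samples labelled Lv-Ctrl and 83.1, 83.7, 80.1 and 85.1 TPM in those labelled Lv-Piezo1. The samples labelled Lv-Piezo1 were all higher, by a small amount. For Nr1h2, the difference in log2 was 0.11 (standard error 0.03) on the deposited values, -0.03 relative to the median of all genes, and its direction turned to -0.05 after median-ratio scaling but not after quantile normalization (0.04).

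Nr1h3, the form best known from liver, fat and macrophages, measured 5.08, 6.01, 5.57 and 5.10 TPM in samples labelled Lv-Ctrl and 3.46, 3.69, 3.21 and 2.91 TPM in those labelled Lv-Piezo1. All samples labelled Lv-Piezo1 were lower. The log2 fold change was -0.58 (standard error 0.08), or -0.72 relative to the median. The TPM of Nr1h2 was 12.8 to 15.5 times that of Nr1h3 in the samples labelled Lv-Ctrl and 22.7 to 29.2 times that of Nr1h3 in those labelled Lv-Piezo1.

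Among the uptake receptors, Scarb1 was higher and Lrp1 overlapped. Scarb1, which takes cholesteryl ester from high density lipoprotein and also lets cholesterol pass outward, measured 12.5, 13.7, 12.2 and 12.8 TPM in samples labelled Lv-Ctrl and 30.7, 28.4, 29.2 and 28.8 TPM in those labelled Lv-Piezo1. The groups were well apart. The mean was 2.29 times as high in the samples labelled Lv-Piezo1 (12.8 ± 0.676 and 29.2 ± 1.01 TPM, SD, n = 4 each), with a log2 fold change of 1.14 (standard error 0.05) and 0.99 relative to the median.

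Lrp1, a large receptor for Apoe-bearing particles and many other ligands, measured 294, 298, 214 and 262 TPM in samples labelled Lv-Ctrl and 251, 235, 255 and 275 TPM in those labelled Lv-Piezo1. The lowest value was that of replicate 3 labelled Lv-Ctrl, and the groups overlapped with or without it. For Lrp1 the log2 fold change was -0.06 (standard error 0.10), or -0.20 relative to the median. When each sample was left out in turn it ran from -0.16 without that replicate to -0.0041 without replicate 2 labelled Lv-Ctrl.

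Mylip measured 44.9, 43.8, 36.4 and 43.4 TPM in samples labelled Lv-Ctrl and 36.5, 36.3, 38.0 and 38.8 TPM in those labelled Lv-Piezo1. The value of replicate 3 labelled Lv-Ctrl lay among those labelled Lv-Piezo1, and the other replicates labelled Lv-Ctrl lay above them. The log2 fold change of Mylip was -0.16 (standard error 0.07), or -0.31 relative to the median, and -0.23 without replicate 3. Npc1 measured 43.0, 45.8, 35.3 and 40.9 TPM in samples labelled Lv-Ctrl and 37.0, 34.1, 38.1 and 40.9 TPM in those labelled Lv-Piezo1. Its groups overlapped through replicate 3 labelled Lv-Ctrl, and the other replicates labelled Lv-Ctrl all lay above the highest value labelled Lv-Piezo1, the closest by little (40.92 against 40.87 TPM). For Npc1 the log2 fold change was -0.13 (standard error 0.08), or -0.27 relative to the median. When each sample was left out in turn it ran from -0.20 without replicate 3 to -0.08 without replicate 2, both labelled Lv-Ctrl.

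**Figure D1:**
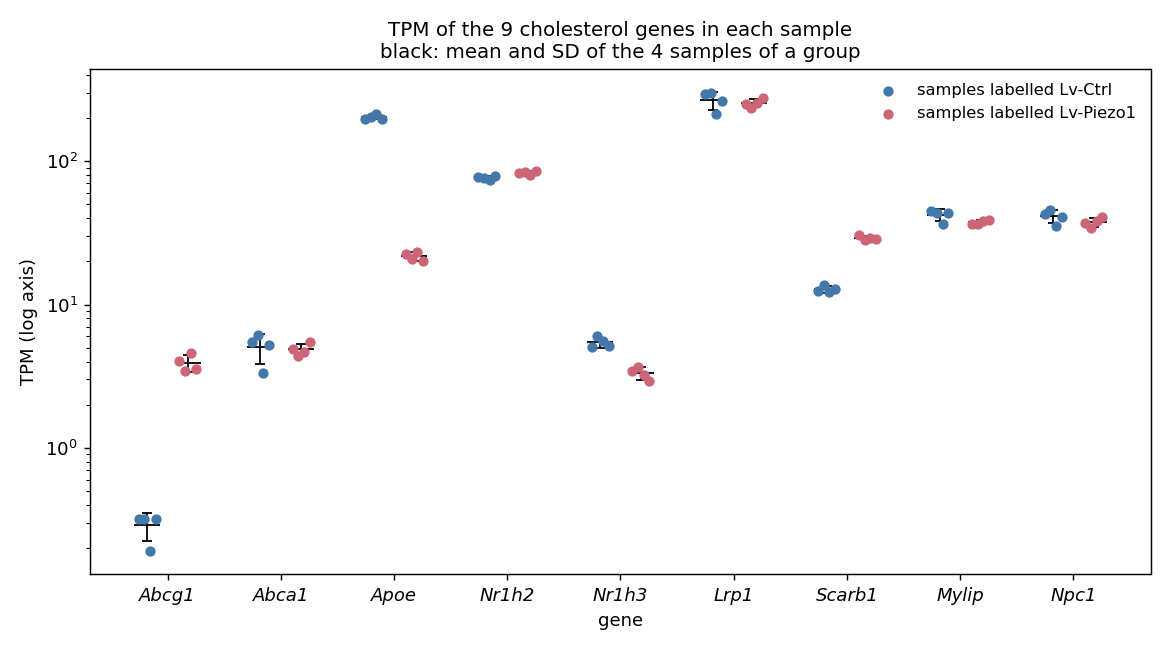
TPM (log axis) of the 9 cholesterol genes in each of the 4 samples labelled Lv-Ctrl and the 4 labelled Lv-Piezo1; points are samples and black marks are the mean with its SD. Abcg1 and Scarb1 lie higher and Apoe and Nr1h3 lower in the samples labelled Lv-Piezo1, while Abca1, Lrp1, Mylip and Npc1 overlap and Nr1h2 is slightly higher on these values but has a log2 fold change of -0.05 after median-ratio scaling and of 0.04 after quantile normalization.

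In all, the groups did not overlap for 5 of the 9 genes. Abcg1, Scarb1 and Nr1h2 were higher (3 of 9), and Apoe and Nr1h3 were lower (2 of 9). Of all tested genes, 39.8% were higher and 14.5% lower without overlap. Without replicate 3 labelled Lv-Ctrl, Npc1 and Mylip joined the lower genes, which gave 3 of 9 higher and 4 of 9 lower, beside 41.7% and 18.4% of all tested genes. Since the 9 genes were chosen by this contrast, nothing is read from these counts.

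The order of the levels changed with the label. By mean TPM in the samples labelled Lv-Ctrl, Lrp1 (267) was followed by Apoe (203), Nr1h2 (76.7), Mylip (42.1), Npc1 (41.3), Scarb1 (12.8), Nr1h3 (5.44), Abca1 (5.04) and Abcg1 (0.288). The ranges of Mylip and Npc1 overlapped there, as did those of Nr1h3 and Abca1. In the samples labelled Lv-Piezo1, Apoe came after Lrp1, Nr1h2, Npc1, Mylip and Scarb1, as number 6 of 9. Npc1 and Mylip overlapped again, and so did Abca1 (4.86) with Abcg1 (3.905), though Abca1 was the higher of the 2 within each sample. Abcg1 also overlapped with Nr1h3 (3.32), so the order of Abcg1 and Nr1h3 is not resolved beyond the spread of the samples. All values of Abca1 (4.38 to 5.46 TPM) lay above those of Nr1h3 (2.91 to 3.69 TPM).

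Other genes of sterol handling were counted in 8 lists with 121 genes, of which 119 were found by symbol and 80 passed the limit on low TPM. Calls needed an adjusted p below 0.05 (limma, Benjamini-Hochberg) together with a log2 fold change of 1 or more in size. Of the 80 genes, 5 were called higher (6.25%) and 2 were called lower (2.5%), beside 4.91% and 2.76% of all 13103 tested genes. With the adjusted p alone, 44 were higher (55.0%) and 12 lower (15.0%), beside 41.9% and 16.3% of all tested genes. Median-ratio scaling moved this second count to 30 higher and 24 lower, beside 27.9% in each direction over all tested genes. The calls again numbered 5 higher and 2 lower, beside 514 and 468 of the 13103 tested genes. Quantile normalization gave 29 higher and 20 lower, beside 28.7% and 27.3% over all tested genes. It gave 4 called higher and 3 called lower, beside 463 and 485 of the 13103 tested genes. Without replicate 3 labelled Lv-Ctrl, 42 were higher and 17 lower by the adjusted p alone, beside 40.8% and 18.2% of all tested genes. In that setting 5 were called higher and 2 lower, beside 640 and 390 of the 13103 tested genes. Over all tested genes, 64.1% of the calls were higher as deposited, 52.3% with median-ratio scaling, and 48.8% when the log2 values were quantile normalized. The median log2 fold change of the 80 genes was 0.20, against 0.14 over all tested genes. It was 0.15 against 0.12 without replicate 3 labelled Lv-Ctrl, 0.05 against -0.0046 with median-ratio scaling and 0.07 against -0.0036 with quantile normalization.

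Of 8 tested LXR target genes besides the 9, 2 were called higher and none lower, beside 4.91% and 2.76% of all tested genes. Lpl, the lipoprotein lipase that frees fatty acids from lipoprotein triglyceride, measured 0.68, 0.63, 0.57 and 0.52 TPM in samples labelled Lv-Ctrl and 10.4, 11.3, 10.3 and 12.0 TPM in those labelled Lv-Piezo1. It rose by 2.91 in log2 fold change (SE 0.08; limma, Benjamini-Hochberg adjusted p = 8.3e-09), with no overlap. Its mean was below 1 TPM in the samples labelled Lv-Ctrl, so like Abcg1 it was tested because of the group where it was high. Pltp, which transfers phospholipid between lipoproteins, rose from 16.6 ± 0.78 to 55.1 ± 2.83 TPM (SD, n = 4 each, log2 fold change 1.67, adjusted p = 1.5e-08 from limma). With the adjusted p alone, 6 of the 8 were higher and 2 lower, beside 41.9% and 16.3% of all tested genes. Lpcat3, counted as higher, had a log2 fold change of 0.10, and -0.06 after median-ratio scaling. The others counted as higher kept their direction. Counts per list, here and below, are of the deposited values, and small differences in them can turn with scaling. The 2 lower genes, chosen after their values were seen, were Arl4c with a log2 fold change of -0.71 and Mertk with -0.77.

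Among 7 tested LXR partners and coregulators, 0 were called, beside 4.91% called higher and 2.76% called lower of all tested genes. At an adjusted p below 0.05 alone (limma), 3 were higher and 0 lower, beside the same 41.9% and 16.3%. Of 13 ABCA and ABCG transporters, 4 passed the limit on low TPM and 1 was called, beside 4.91% higher and 2.76% lower over all tested genes. Abcg4, the closest relative of Abcg1, measured 2.15, 2.40, 1.90 and 1.77 TPM in samples labelled Lv-Ctrl and 6.59, 5.04, 6.48 and 6.21 TPM in those labelled Lv-Piezo1. Its groups did not overlap, and it rose by 1.21 in log2 fold change (SE 0.10; limma, Benjamini-Hochberg adjusted p = 1.1e-05).

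Of 14 tested lipoprotein and scavenger receptors, 1 was called, beside 4.91% called higher and 2.76% called lower of all tested genes. It was the sorting receptor Sort1, which rose from 4.71 ± 0.52 to 21.9 ± 2.01 TPM (SD, n = 4 each, log2 fold change 2.00, adjusted p = 1.3e-07 from limma). At an adjusted p below 0.05 alone, 10 were higher and 1 lower, beside 41.9% and 16.3% of all tested genes. Of 23 tested endosomal, lysosomal and transfer proteins, 13 were higher and 3 lower by the adjusted p alone, beside 41.9% and 16.3% of all tested genes. The list held 1 called gene, beside 4.91% called higher and 2.76% called lower of all tested genes. Stard4, a carrier of cholesterol between membranes, measured 4.11, 1.94, 3.50 and 2.43 TPM in samples labelled Lv-Ctrl and 7.01, 7.58, 6.36 and 10.3 TPM in those labelled Lv-Piezo1, with a log2 fold change of 1.16 (SE 0.19; limma adjusted p = 7.7e-04). Its samples spread widely within each group, and after quantile normalization the log2 fold change was 0.95, under the threshold.

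Of 9 tested genes of ester storage and oxysterol enzymes, 4 were higher and 2 lower by the adjusted p alone, beside 41.9% and 16.3% of all tested genes. This list held 1 called gene, beside 4.91% called higher and 2.76% called lower of all tested genes. Cyp7b1, which hydroxylates oxysterols that are LXR ligands, measured 25.8, 25.7, 24.8 and 28.0 TPM in samples labelled Lv-Ctrl and 6.03, 7.12, 6.26 and 6.76 TPM in those labelled Lv-Piezo1. It fell by 1.84 in log2 fold change (SE 0.06; limma, Benjamini-Hochberg adjusted p = 2.7e-08), with no overlap. Of 11 tested sterol sensing genes, 4 were higher and 3 lower by the adjusted p alone, beside the same 41.9% and 16.3%. They included 1 called gene, beside 4.91% called higher and 2.76% called lower of all tested genes. Insig1, which holds the SREBP processing complex in the endoplasmic reticulum membrane, went down from 141 ± 6.15 to 54.2 ± 2.29 TPM (SD, n = 4 each, log2 fold change -1.36, adjusted p = 2.2e-08 from limma). Of 4 tested apolipoproteins and lipoprotein enzymes, 0 were called, beside 4.91% called higher and 2.76% called lower of all tested genes. By the adjusted p alone, 2 of these 4 were higher and 1 lower (41.9% and 16.3% of all tested genes). The largest change was that of Apom, with a log2 fold change of 0.57 (adjusted p = 0.011 from limma) and overlapping groups. Apom passed the limit on low TPM through the samples labelled Lv-Piezo1, and its log2 fold change was 0.92 with a pseudocount of 0.1 and 0.34 after quantile normalization. The adjusted p from limma ran from 0.0017 to 0.068 over the alternatives and was above 0.05 only with quantile normalization.

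**Figure D2:**
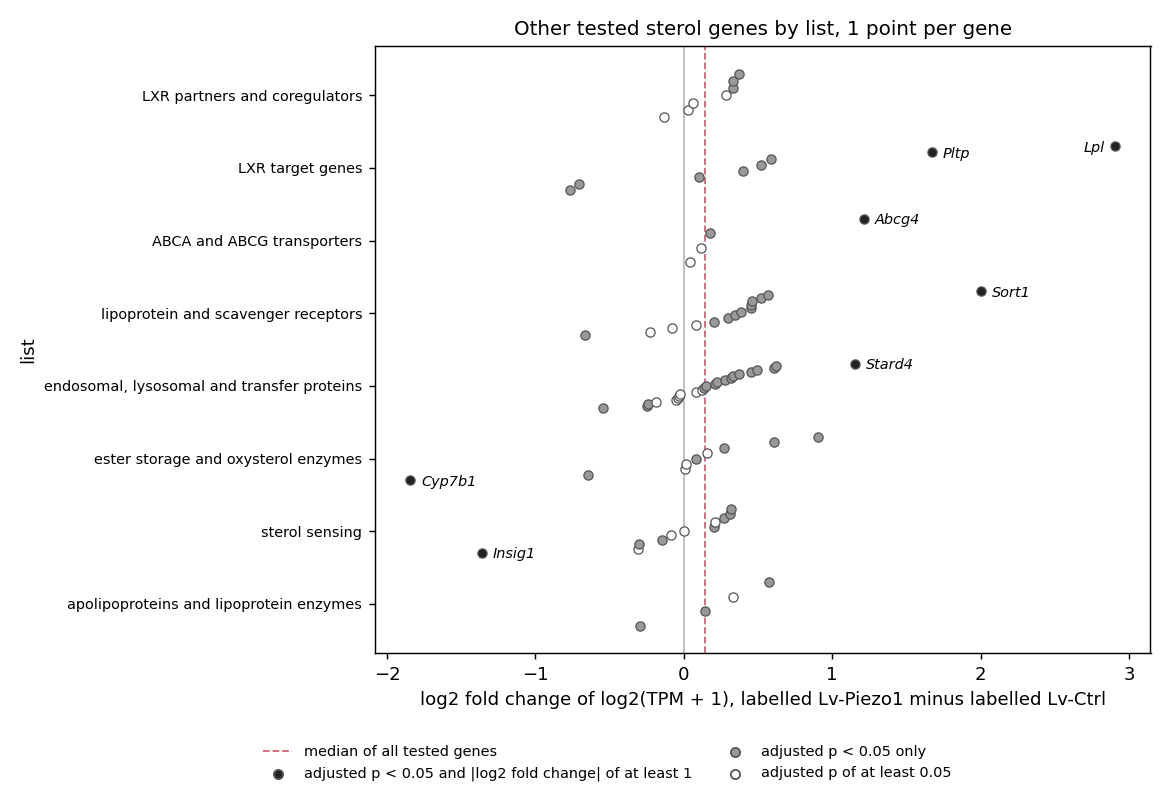
Log2 fold change of log2(TPM + 1), labelled Lv-Piezo1 minus labelled Lv-Ctrl, of each of the 80 tested genes in the 8 other sterol lists; filled black points were called, grey points had an adjusted p below 0.05 only, open points neither, and the dashed line is the median of all tested genes (0.14). The 7 called genes are Lpl, Pltp, Abcg4, Sort1 and Stard4 on the higher side and Cyp7b1 and Insig1 on the lower side.

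Genes with a pattern like that of Abcg1 were taken as those with the highest Pearson correlation with it over the 8 samples, on log2(TPM + 1). The 5 most alike were Cd248 (0.999), Trap1 (0.998), Lonp1 (0.998), Fam149a (0.998) and Tpm1 (0.997). The 8 samples fall into 2 groups, and 1680 of 9061 genes with a symbol and a mean of at least 5 TPM reached 0.95, so this likeness is shared by many genes. On the deviations from the group means, the 5 most alike were Men1 (0.989), Chtop (0.952), Ppp1r3f (0.949), Ripk1 (0.939) and Cfap70 (0.936). They are the highest of the same 9061 genes, so high values can come from the choice alone. Among the samples labelled Lv-Ctrl, the deviations of Abcg1 differ only in replicate 3, since the others had 0.32 TPM each. These correlations are a description, and shared control was not tested.

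Markers of other cell types were read beside these results, since macrophages are rich in Abcg1 and Apoe. Of 16 macrophage markers, 3 passed the limit on low TPM and 1 was called, beside 4.91% called higher and 2.76% called lower of all tested genes. Adgre1, Cd163, Tyrobp, C1qa, C1qb and C1qc were listed at 0 in all 8 samples, and Ptprc was at or near 0 in each. The summed level of the list was 137, 139, 143 and 138 TPM in samples labelled Lv-Ctrl and 153, 153, 156 and 150 TPM in those labelled Lv-Piezo1, most of it from Fcer1g. Cd68, a lysosomal protein, was the 1 called gene of the list and rose from 0.955 ± 0.899 to 12.3 ± 0.901 TPM (SD, n = 4 each, log2 fold change 2.88, adjusted p = 2.7e-05 from limma). It too was tested because of the group where it was high.

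Smooth muscle and pericyte markers moved with the label. Of 12, 10 passed the limit on low TPM, 6 were called higher and 2 lower (4.91% and 2.76% of all tested genes). The summed level was 863, 853, 828 and 836 TPM in samples labelled Lv-Ctrl and 4698, 4773, 4769 and 4604 TPM in those labelled Lv-Piezo1. Kcnj8 was the most abundant gene of the list in the samples labelled Lv-Ctrl and Tagln in those labelled Lv-Piezo1, and no gene of it was at 0 in all samples. Kcnj8 and Abcc9 were the lower genes. Pdgfrb, which pericytes share with fibroblasts, was at 106 ± 4.48 and 118 ± 2.28 TPM (SD, n = 4 each). Their part in the differences of Abcg1, Apoe and the other sterol genes was not tested. In bulk RNA, fewer cells of a type and less RNA per cell cannot be told apart.

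The endothelial list held 9 genes found, with 2 tested, Esam and Flt1, both called higher, beside 4.91% of all tested genes. Esam passed the limit only through the samples labelled Lv-Piezo1. The list's summed level was 2.34, 2.46, 2.02 and 2.77 TPM in samples labelled Lv-Ctrl and 11.3, 10.5, 11.6 and 13.6 TPM in those labelled Lv-Piezo1, with Flt1 the most abundant gene in the first group and Esam, closely followed by Flt1, in the second. Emcn was listed at 0 with Cdh5 and Pecam1 near 0. Of 8 adipocyte markers, 4 were tested, with Fabp4 called higher and Cfd, which passed the limit through the samples labelled Lv-Ctrl, called lower (4.91% and 2.76% of all tested genes). By the adjusted p alone (limma), 1 was higher and 3 lower, beside 41.9% and 16.3% of all tested genes. Without replicate 3 labelled Lv-Ctrl, 1 was higher and 2 lower, beside 40.8% and 18.2%. The summed level of the adipocyte list was 24.2, 23.5, 21.7 and 21.3 TPM in samples labelled Lv-Ctrl and 25.9, 24.8, 26.4 and 23.6 TPM in those labelled Lv-Piezo1. Lipe, which the ester storage list also holds, was the most abundant in the first group and Fabp4 in the second, and Adipoq and Plin1 were near 0. The part of these lists in the results was not tested. Of 8 chondrocyte-like markers 4 were tested and 1, Comp, was called higher, beside 4.91% of all tested genes. Comp passed the limit through the samples labelled Lv-Piezo1, and it was not called with quantile normalization, where its log2 fold change was 0.93. Of 7 nucleus pulposus and notochord markers found 2 were tested and 1, Cd24, was called higher, beside the same 4.91%.

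The promoters of the 9 genes were read from RefSeq (build GRCr8), which gave 9 entries for 7 of the genes. No entry was found for Abcg1 and Scarb1. The 250 bases before the start were searched on both strands for 4 patterns. The consensus of an LXR element, AGGTCA repeated with 4 bases between the copies, was in 0 of the 9 entries and in 0.00299% of 33469 promoters. A looser form, GGTNA and GGTCA with 5 bases between them, was in 1 of the 9, that of Abca1, and in 0.209% of all promoters. The looser letters were set after the Abca1 promoter had been read, so that match was found by construction. The sterol element TCACNCCAC was in 0 of the 9 and in 0.974% of all promoters, and TATAAA was in 2 of the 9, Abca1 and Mylip, and in 12.9% of all promoters.

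The Abca1 promoter is shown because it holds the looser match, and the Apoe entry with the start farthest upstream because Apoe had the largest difference of the 9 genes on the log2(TPM + 1) scale (as a ratio of means, that of Abcg1 was larger). Capitals mark the looser match, on the strand opposite to the one printed, 70 to 56 bases before the start. Abca1 is at chr5:72596474-72596723 on the minus strand and Apoe at chr1:88485817-88486066 on the minus strand, both 5′ to 3′. Apoe has several entries, and TPM per gene does not tell which start was used. A match is a description of letters, and binding was not measured here.
Abca1: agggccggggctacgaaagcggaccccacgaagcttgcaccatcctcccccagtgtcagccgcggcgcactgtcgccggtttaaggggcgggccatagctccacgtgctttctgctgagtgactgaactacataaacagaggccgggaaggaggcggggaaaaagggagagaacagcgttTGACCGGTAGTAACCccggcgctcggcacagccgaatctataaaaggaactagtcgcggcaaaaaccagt
Apoe: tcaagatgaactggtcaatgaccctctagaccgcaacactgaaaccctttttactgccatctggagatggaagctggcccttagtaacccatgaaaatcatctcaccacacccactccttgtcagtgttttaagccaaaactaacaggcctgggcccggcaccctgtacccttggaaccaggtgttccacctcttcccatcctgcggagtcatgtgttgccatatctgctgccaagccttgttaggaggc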

How the data were processed

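RNA-seq covered 8 samples of cultured rat AFCs in 2 groups of 4, grouped by their labels. The authors mapped reads to the rat genome with HISAT2, assembled transcripts with StringTie and deposited TPM per gene, rounded to 2 decimals. The study's methods name FPKM, and the submitters' processing notes name mm10, a mouse build, and DESeq2, while the gene identifiers are those of rat. TPM keeps no depth, so the depth is unknown and no count model was fitted. Samples were matched to columns by their labels.

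Here log2(TPM + 1) was compared with limma 3.58.1 in R 4.3.3 (trend, Benjamini-Hochberg adjustment, no block) over the 13103 genes with a mean of at least 1 TPM. The fit was also run on simulated data with independent noise for each gene. Those data held no shift of a whole sample, so they cannot show how the fit handles one. The 9 genes and the lists were chosen with earlier results of these data known. Named genes are the 9, Piezo1, the called genes of each other sterol list or else its largest change, and those most like Abcg1. Other genes named, most of them markers, were chosen after their values were seen. A gene that meets this rule is not reported here. Alternatives covered the pseudocount, the limit on low TPM, scaling, mitochondrially encoded protein genes, moderation, the block and leaving out each sample. The count without a fold change threshold, the marker calls under other settings, and the count of groups without overlap that leaves out replicate 3 labelled Lv-Ctrl, were added after the data were seen.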

Additional observations from a re-analysis of the deposited data

Results flagged for a closer look

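In 38 groups of 4 values (the 9 genes, Piezo1 and the 9 other sterol genes taken by the rule for named genes), 2 held a sample far from the others, about as many as chance gives with 1 in 20. For Abcg1, replicate 3 labelled Lv-Ctrl had 0.19 TPM and the other replicates of that label had 0.32 TPM each, so its gap took up the whole range (1.0 of it). These values are rounded to 2 decimals, and the groups did not overlap with or without that sample. For Apom, replicate 1 labelled Lv-Piezo1 had 1.25 TPM against 2.24, 2.30 and 2.15 TPM in the other replicates, a gap of 0.857 of the range.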

How the results depend on the processing

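The log2 fold change of Abcg1 was 1.92, and 3.38 with a pseudocount of 0.1 and 1.70 after quantile normalization. It was 1.86 to 1.97 when each sample was left out in turn. A mean of at least 5 TPM gave no value for Abcg1, Abca1 and Nr1h3, which it removes. That limit also removed Apom and gave 628 called genes in place of 1005, since fewer genes were tested, while the pseudocount of 0.1 gave 1438 called genes, 10 of them other sterol genes. Without a fold change threshold, chosen after seeing the data, 7626 genes and 56 other sterol genes had an adjusted p below 0.05. Leaving out each sample gave 1006 to 1030 called genes and 7 to 8 called other sterol genes. Of the called other genes named in the text, Stard4 lost its call after quantile normalization, and Abcg4 was removed by a mean of at least 5 TPM, which left 6 called. Scarb1 came under a log2 fold change of 1 with both scalings (0.98 each), and Nr1h2 turned to -0.05 with median-ratio scaling but was 0.04 with quantile normalization, and the causes were not tested. Samples with the same replicate number showed no likeness (correlations of deviations -0.03, -0.06, -0.05 and -0.01). Pairing by isolation could not be tested, since the isolation of each sample was not given. A replicate block gave 1004 called genes, 7 other sterol genes and 1.92 for Abcg1. With that block the adjusted p from limma was larger, at 1.0e-05 for Lpl and 1.8e-05 for Insig1. With unknown depth, values near 0 have an unknown counting error.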
